A study of Mus musculus with 25 samples.

Results

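The Mef2c/p300 sites are the DNA fragments that split DamID (SpDamID) marked when Mef2c-D was paired with p300-AM-Ert2 in mK4 cells, a mouse line from embryonic kidney mesenchyme, scored over Dam alone. All regions of that deposited list on chromosomes 1 to 19 and X were taken, except a single region longer than 100 kb (chr13:92136248-92791354, 655107 bp, score 3). This gave 28756 of 28757 regions, among 96403 distinct fragments in the 6 SpDamID lists and 222370 regions in all 9 lists of the series. The longest region kept was 50449 bp, and 0 regions lay on other chromosomes. The list rests on 1 Mef2c-D/p300-AM-Ert2 library and 3 DAM libraries, all with the strain label CD1.

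SpDamID was compared with FAIRE and with ChIP across 25 libraries. The other SpDamID lists used here were Mef2c-D/MAML-AM-Ert2 (1 library, strain label CD3), N1-D/p300-AM-Ert2, N1-D/MAML-AM-Ert2 and N1-D/RBP-AM-Ert2 (3 libraries each), and N1-D/N1-AM-Ert2 (2 libraries, 1 of them with the strain label CD2). Both FAIRE lists carry the initials of the N1wt FAIRE libraries (3, with 1 input), and N1 ChIP has 1 library and 1 input. The labels say neither how the fusions were expressed nor which treatment the cells received. The FAIRE libraries are N1wt or control by label, so open chromatin in the cells that carried Mef2c-D and p300-AM-Ert2 was not measured. The files hold no expression values, so the cell line could not be checked against marker genes.

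Mef2c is a MADS-box transcription factor best known from muscle, heart, neural and blood vessel development, where it binds AT-rich sites and recruits co-regulators. p300 is a histone acetyltransferase that many transcription factors recruit to enhancers, and MAML is a co-activator of the Notch complex that also binds p300 and can act with Mef2c. In SpDamID, inactive parts of the bacterial adenine methylase Dam are fused to a pair of proteins. Methylation of GATC sites then needs both parts to come together, and DpnI cuts the methylated sites so that the fragments between them can be recovered. FAIRE recovers open chromatin as the DNA that stays free of protein cross-links in phenol-chloroform extraction.

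All lists pool their libraries and give no value per library, and the depth of each library is unknown. No difference reported here therefore has a replicate error, and none was tested. Intervals are exact Clopper-Pearson 95% intervals that cover counting error only, and neighbouring fragments are not independent. The range over the 20 chromosomes is given as the spread within these lists. The Dam control is common to all 6 SpDamID lists, and they lie on a common map on which fragments are either identical or separate, with 0 partial overlaps.

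The Mef2c/p300 regions were short, with a median length of 630 bp, and 5% were over 1026 bp. They covered 19.1 Mb, which is 0.742% of the 2576.47 Mb spanned by the SpDamID lists. Their deposited score, a whole number whose scale is not stated, ran from 2 to 867 with a median of 286 and quartiles of 151 and 412. By number of regions the list was close to N1/RBP (28281) and N1/N1 (31935), larger than N1/p300 (22358) and N1/MAML (16545), and smaller than Mef2c/MAML (50380).

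The regions were spread over all chromosomes at 11.2 per Mb, and their density followed that of the other complexes. Chromosome 19 held 20.7 regions per Mb and chromosome 11 held 16.0. The X chromosome held 5.08 and chromosome 14 held 7.39. In each of the 6 SpDamID lists chromosomes 19 and 11 were the densest and X and 14 the sparsest. The spread was narrower when each chromosome was measured by its share of marked fragments. Mef2c/p300 held 36.0% of the distinct fragments of chromosome 16 and 34.2% of those of chromosome 3, against 26.8% on chromosome 4 and 27.0% on chromosome 7. Chromosome 16 was thus 1.21 times its share of all fragments, whereas chromosome 19, at 1.85 times the mean density, was 1.06 times its share of fragments. Over 2587 windows of 1 Mb the number of Mef2c/p300 regions correlated with that of Mef2c/MAML (Spearman's rho 0.93), N1/p300 (0.88) and total FAIRE (0.86). These windows share their number of GATC fragments and the Dam control, so the coefficients are a description.

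**Figure D1:**
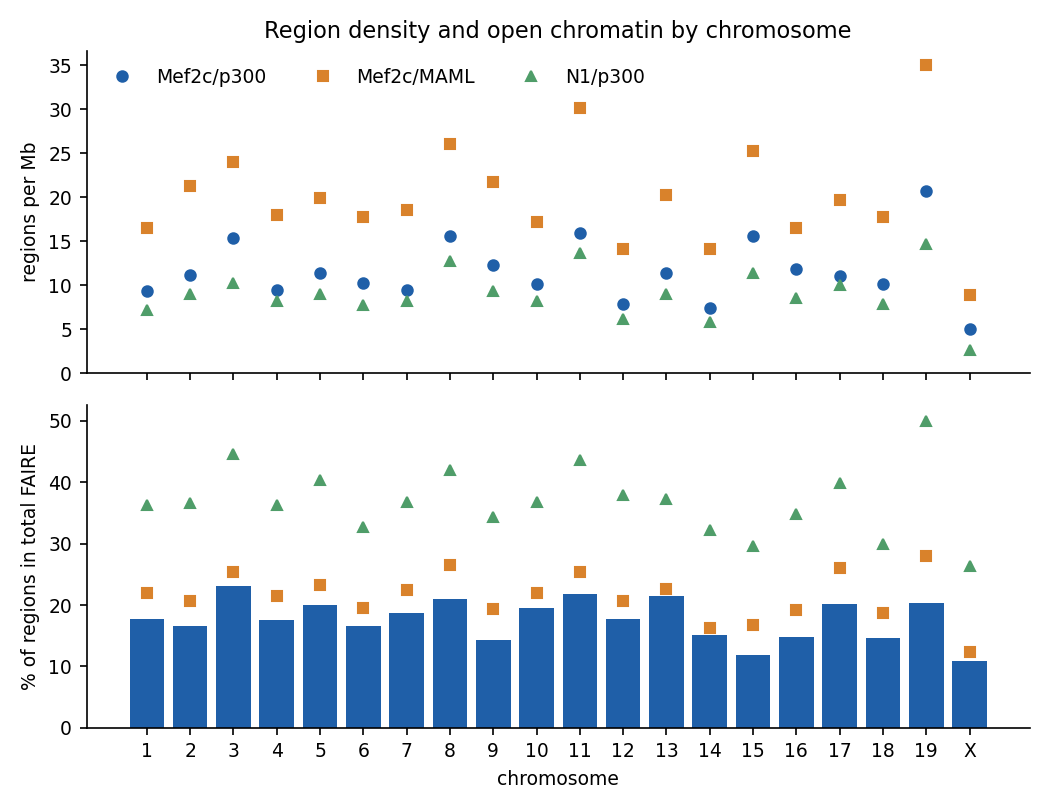
Upper panel, regions per Mb on each chromosome for Mef2c/p300 (circles), Mef2c/MAML (squares) and N1/p300 (triangles). Lower panel, percent of each list's regions that overlap total FAIRE, with Mef2c/p300 as bars. Mef2c/p300 lies under the other 2 lists in the lower panel on all 20 chromosomes, from 11.0% on X to 23.1% on chromosome 3.

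Mef2c/p300 regions occurred in groups, though a smaller share of them abutted than in any other SpDamID list. The median gap to the nearest region of the list was 5789.5 bp, and the mean spacing was 89598 bp. These are unlike measures, since the gap takes the nearer side and the spacing divides the span by the number of regions. A neighbour lay within 1 kb for 31.7% of regions, within 10 kb for 58.7% and within 50 kb for 86.2%. The 10 kb share was 72.8% in Mef2c/MAML, 66.4% in N1/N1, 66.3% in N1/RBP, 59.5% in N1/p300 and 46.4% in N1/MAML, which have other numbers of regions. Abutting neighbours, fragments next to each other on the map, were found for 13.3% of Mef2c/p300 regions, against 16.1% in N1/MAML and 20.98 to 24.1% in the other lists. Of the regions, 24930 abutted no other, and the rest formed 1629 abutting pairs, 158 runs of 3, 17 of 4, 4 of 5 and 1 of 6. Fragments without an abutting neighbour overlapped total FAIRE in 16.2% of cases and fragments in pairs in 30.2%, against 19.3% of all distinct fragments.

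The run of 6 lay at chr5:53954530-53957781, with scores from 166 to 495. Mef2c/MAML held all 6 of its fragments, N1/p300 held 5, and 4 overlapped total FAIRE. The runs of 5 differed among themselves. The run at chr3:145364983-145367719 had all 5 fragments in total FAIRE and 4 in N1/p300. The run at chr7:129171303-129174480 reached a score of 647 with 4 fragments in Mef2c/MAML, 0 in N1/p300 and 0 in FAIRE. The other runs, at chr1:93587244-93590711 and chr3:104099085-104101737, had 3 fragments each in FAIRE, with 4 and 1 in N1/p300.

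At a larger scale the densest stretch was on chromosome 15. The 5 windows of 100 kb with most regions began at 11.6 Mb (28 regions), 12.0 Mb (26) and 81.4 Mb (26) on chromosome 15, at 73.5 Mb on chromosome 8 (27) and at 121.2 Mb on chromosome 3 (24). All 4 windows of 1 Mb with at least 100 regions lay on chromosome 15, beginning at 8, 10, 11 and 12 Mb, with 112, 111, 109 and 152 regions. Those 484 regions had a median score of 312, close to the 286 elsewhere. Mef2c/MAML held 57.6% of them, against 48.9% of members elsewhere and 45.8% on the rest of chromosome 15, and N1/p300 held 19.4%, against 24.5 and 24.1%. Of all distinct fragments, Mef2c/MAML holds 52.3% and N1/p300 holds 23.2%. Only 4.55% (2.87 to 6.80%) of them overlapped total FAIRE, against 18.4% elsewhere and 15.1% on the rest of chromosome 15. The same windows held 11 of the 19353 total FAIRE regions (0.0568%), so open chromatin was sparse there while SpDamID fragments of every list were frequent (232 to 583 per list). N1 ChIP regions were frequent there too, with 353 of 22306 (1.58%), near the 1.68% of Mef2c/p300 regions. Without these windows the share of Mef2c/p300 regions in total FAIRE was 18.4%, against 18.2% with them.

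The highest scores were concentrated in 2 short stretches. Of 36 Mef2c/p300 regions with a score of 700 or more, 24 lay in chr13:83732121-83802236 or chr15:81430389-81482435, and these included the 10 highest of the list. The chromosome 13 stretch held 7 regions with scores from 644 to 867 (median 817). All 7 were also in Mef2c/MAML, at scores from 624 to 853, and 0 were in any N1 list, though N1/N1 had 2 other regions in the stretch. The highest region of the whole list, chr13:83801052-83802127, scored 867. Next to it, chr13:83802128-83802236 scored 833 in Mef2c/p300 and 789 in Mef2c/MAML, and chr13:83772512-83772888 scored 837 and 853.

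The chromosome 15 stretch, which lies inside the dense 100 kb window at 81.4 Mb with its 26 regions, showed the opposite partner. It held 25 Mef2c/p300 regions with a median score of 798, of which 23 were in N1/p300 at scores from 629 to 870. Mef2c/MAML, N1/MAML, N1/RBP and N1/N1 each had 0 regions in it. The highest, chr15:81430389-81432018, scored 849 in Mef2c/p300 and 870 in N1/p300. At chr15:81470354-81470731 the scores were 831 and 857, and at chr15:81438417-81440262 they were 829 and 861. Scores were not uniformly high, since chr15:81451532-81452179 scored 3 in Mef2c/p300 and 629 in N1/p300. Neither stretch held any region of total FAIRE, Notch-dependent FAIRE or N1 ChIP.

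The regions of the chromosome 13 stretch were thus shared among the lists with Mef2c, and those of the chromosome 15 stretch among the lists with p300. The RefSeq gene table used here, of build GRCm38.p6, places Mef2c on chromosome 13 and Ep300, the gene of p300, on chromosome 15. The lists are on build mm9, so gene positions were not compared with the stretches, and what gives rise to them was not tested. Together they hold 32 of the 28756 regions, and leaving them out gave shares of 49.1% in Mef2c/MAML, 24.3% in N1/p300 and 18.2% in total FAIRE.

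**Figure D2:**
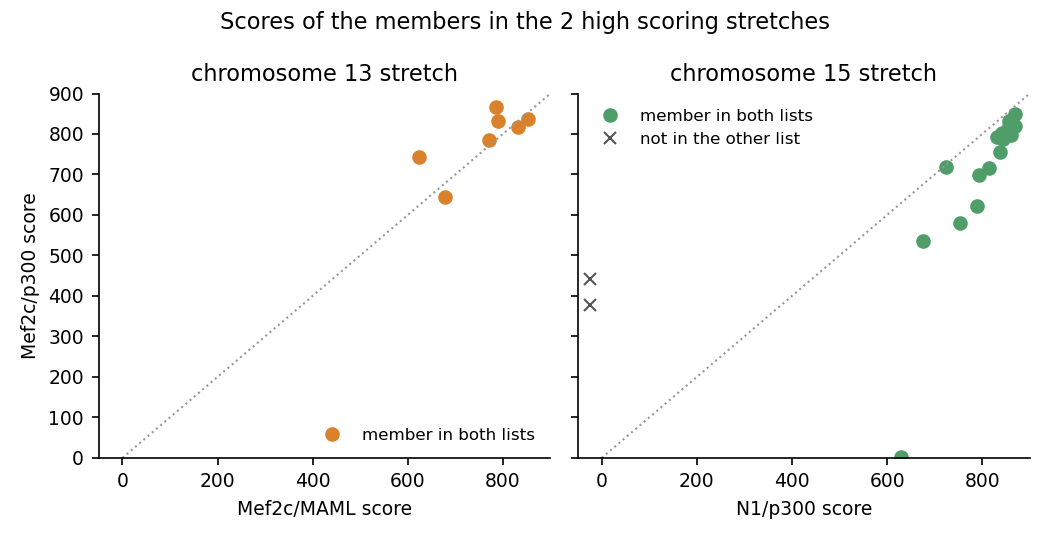
Score of each Mef2c/p300 region in the 2 stretches (vertical axis) against its score in the other list that holds it (horizontal axis), Mef2c/MAML on chromosome 13 and N1/p300 on chromosome 15. The dotted line marks equal scores and crosses mark the 2 regions that N1/p300 lacks. The 7 regions on chromosome 13 lie on both sides of the line, and the 23 shared regions on chromosome 15 lie under it. The scale of the scores is not stated, so the line is a guide only. Over the whole lists the median score is 342 in N1/p300 and 286 in Mef2c/p300.

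Co-occupancy was compared between the list that shares Mef2c and the list that shares p300. Of the Mef2c/p300 regions, 14105 (49.1%, 48.5 to 49.6%) were also Mef2c/MAML regions and 7017 (24.4%, 23.9 to 24.9%) were also N1/p300 regions. The difference was 24.6 points (24.0 to 25.3), with the Mef2c/MAML share higher on 20 of 20 chromosomes, by 19.7 to 27.5 points. Mef2c/MAML is also the larger list, with 50380 regions against 22358, and was denser than N1/p300 on every chromosome. Both shares lay near the background, since Mef2c/MAML holds 52.3% and N1/p300 holds 23.2% of all 96403 distinct fragments. The Mef2c/MAML share was under its background and the N1/p300 share over it. That background counts only fragments found in at least 1 SpDamID list, so it is not the share of GATC fragments in the genome. As a share of covered bases, Mef2c/MAML takes 1.001% and N1/p300 0.585% of the span. Seen from the other lists, 28.0% of Mef2c/MAML regions and 31.4% of N1/p300 regions were Mef2c/p300 regions. Both values also lay near the background, since Mef2c/p300 holds 28756 of the 96403 distinct fragments, a median of 29.5% per chromosome.

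The difference was smaller between lists of matched size. When the 22358 highest scoring Mef2c/MAML regions were used, as many as the N1/p300 list holds, 31.1% of Mef2c/p300 regions were shared with Mef2c/MAML and 24.4% with N1/p300, a difference of 6.68 points. At that size N1/RBP gave 25.8% and N1/N1 gave 24.8%, and N1/MAML, which is smaller, could not be set at it. With the 16545 highest scoring regions of each list the shares were 25.5% for Mef2c/MAML, 21.4% for N1/RBP, 20.6% for N1/N1, 20.4% for N1/p300 and 13.6% for N1/MAML. N1/p300, the N1 list that contains p300, was thus close to N1/N1, under N1/RBP and above N1/MAML. A set of 22358 regions is 23.2% of all distinct fragments, and a set of 16545 is 17.2%. The matched sets are unlike parts of their lists, the whole of the smallest list but only the highest scoring regions of larger ones. In each list the highest score quartile was shared with Mef2c/p300 more often than the lowest, so the order is a description.

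Mef2c/p300 regions in N1/p300 were mostly also in Mef2c/MAML. Of all members, 5791 (20.1%) were in both lists, 8314 (28.9%) in Mef2c/MAML without N1/p300, 1226 (4.26%) in N1/p300 without Mef2c/MAML, and 13425 (46.7%) in neither. Members in both scored highest (median 364), those in Mef2c/MAML alone of this pair had a median of 313, those in N1/p300 alone of it 281, and those in neither 209. Of the members in both lists, 83.1% were also in N1/RBP, 82.1% in N1/N1 and 56.0% in N1/MAML. Over all members these shares were 29.4, 30.2 and 13.6%, and over all distinct fragments 29.3, 33.1 and 17.2%. Members in no other SpDamID list numbered 11781 (41.0%), from 37.0% on chromosome 8 to 49.3% on X, and 2904 (10.1%) were in all 5 other lists. The share found in no other list was 45.1% for Mef2c/MAML and 17.8 to 31.3% for the N1 lists. Of the 67647 fragments not in Mef2c/p300, 46197 were in a single list.

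Single regions show the classes. The highest scoring member in both lists, chr11:3086656-3087333, scored 752 in Mef2c/p300, 682 in Mef2c/MAML and only 53 in N1/p300. The next, chr6:88527850-88528451, scored 736 and was high in every list, from 629 in N1/p300 to 750 in N1/MAML, and it overlapped an N1 ChIP region but no FAIRE region. The third, chr8:93425809-93426429, scored 719, with 727 in Mef2c/MAML and 427 in N1/p300. Among members in neither list the highest were chr5:144423824-144424487 (score 691, in no other list), chr5:68206742-68207402 (score 688, with 111 in N1/MAML) and chr1:57300841-57301690 (score 674, in no other list).

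Sharing with both lists was more frequent at higher scores and less frequent in longer fragments. From the lowest to the highest score quartile, the share in Mef2c/MAML went from 36.7 to 68.0% and that in N1/p300 from 17.5 to 35.4%. From the shortest to the longest length quartile, the Mef2c/MAML share went from 69.1 to 22.5% and the N1/p300 share from 29.8 to 18.3%, while the N1/N1 share was 29.4% in the shortest and 33.8% in the longest. The median fragment length is 486 bp in Mef2c/MAML and 566 bp in N1/p300, against 630 bp in Mef2c/p300. In the longest quartile, lists differed little at low scores, where 12.2% of members were in Mef2c/MAML and 12.6% in N1/p300. Where a fragment was shared, its scores in the pair of lists were only weakly related across fragments, with Spearman's rho of 0.24 over 14105 fragments for Mef2c/MAML and 0.18 over 7017 for N1/p300. The fragments share their length and Dam signal.

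**Figure D3:**
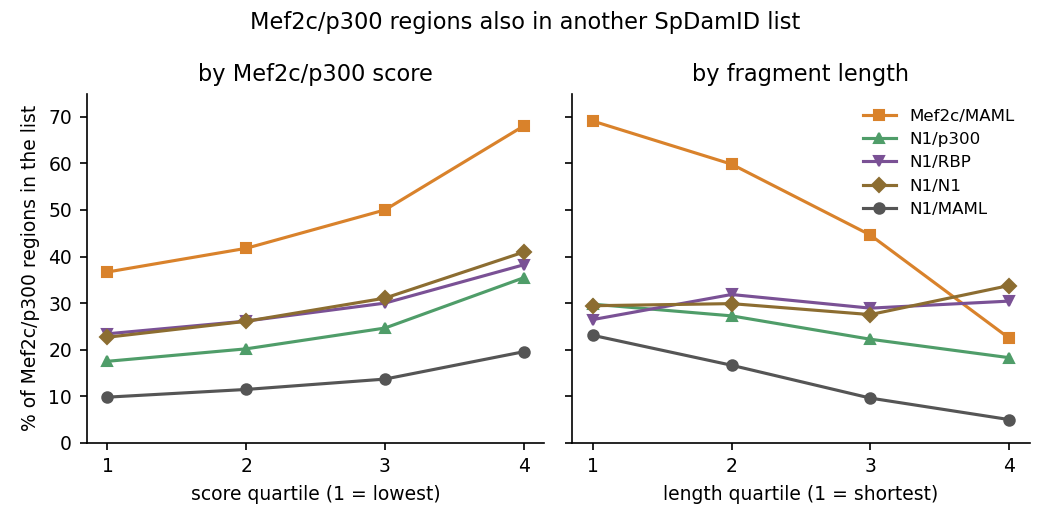
Percent of Mef2c/p300 regions also found in each of the other 5 SpDamID lists, by quartile of the Mef2c/p300 score (left) and of fragment length (right). All 5 lines rise with the score, and the Mef2c/MAML line falls from 69.1 to 22.5% with length.

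High scoring regions of the other lists were also found in Mef2c/p300 more often. From the lowest to the highest quartile of their own score, Mef2c/MAML regions were in Mef2c/p300 in 15.1 to 48.5% of cases and N1/p300 regions in 19.6 to 48.3%. Members not shared with Mef2c/MAML lay a median of 6573 bp from its nearest region, and 58.5% had one within 10 kb. Members not shared with N1/p300 lay a median of 21652 bp away, and 34.7% had one within 10 kb.

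Mef2c/p300 regions lay in open chromatin of N1wt cells less often than the regions of the other complexes, at a share near that of all marked fragments. Total FAIRE overlapped 5224 of them (18.2%, 17.7 to 18.6%), against a background of 19.3% of all distinct fragments and 19.8% of those not in Mef2c/p300. The share was 21.9% for Mef2c/MAML and 35.3 to 37.9% for the 4 N1 lists. On each of the 20 chromosomes the Mef2c/p300 share was under that of every other list. It was lowest on X (11.0%) and chromosome 15 (11.8%) and highest on chromosome 3 (23.1%). Counted from the FAIRE side, Mef2c/p300 marked 22.1% of the 19353 total FAIRE regions, the lowest of the 6 lists, against 25.9% for N1/MAML, whose list is smaller, and 43.2% for N1/N1.

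Mef2c/p300 also had the lowest share of the 6 lists in N1 ChIP and in Notch-dependent FAIRE. Notch-dependent FAIRE overlapped 783 members (2.72%, 2.54 to 2.92%), near the background of 2.8% of distinct fragments. The share was 3.04% (2.89 to 3.19%) for Mef2c/MAML, an interval that overlaps that of Mef2c/p300, and 6.52% for N1/p300. N1 ChIP regions overlapped 143 members (0.497%, 0.419 to 0.586%), against a background of 1.41% of distinct fragments, 1.77% for Mef2c/MAML and 3.16% for N1/p300. These N1 ChIP shares were not weighted to fragment length. N1 ChIP regions had a median length of 137 bp. From the shortest to the longest length quartile of Mef2c/p300, the share in N1 ChIP went from 0.775 to 0.153%. Among the members in total FAIRE, 14.6% were also in Notch-dependent FAIRE, within the 13.4 to 16.8% of the other lists. Of the 143 members in N1 ChIP, 103 were in both Mef2c/MAML and N1/p300, lists that together held 20.1% of all members. Of the members in both, 1.78% overlapped N1 ChIP, against 3.16% of all N1/p300 regions.

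Members shared with N1 lists were in open chromatin more often than the rest. Total FAIRE overlapped 50.3% (49.0 to 51.6%) of members in both Mef2c/MAML and N1/p300, 35.8% (33.1 to 38.6%) of those in N1/p300 but not Mef2c/MAML, 14.1% (13.4 to 14.9%) of those in Mef2c/MAML but not N1/p300, and 5.21% (4.84 to 5.60%) of those in neither. Members in no other list overlapped in 2.89% (2.60 to 3.21%) of cases, or 341 of 11781, and those in Mef2c/MAML as their only other list in 7.26%. Members in at least 1 N1 list, 39.97% of all, contributed 85.9% of the overlaps. Without the 11781 members in no other list, the share of the remaining 16975 was 28.8%.

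At a given number of other lists, Mef2c/p300 regions differed less from other fragments, though a member is then in 1 list more in all. With 1 other list, 8.76% of members and 12.2% of non-members overlapped total FAIRE. With 2 the values were 23.7 and 27.9%, with 3 they were 36.6 and 39.2%, and with 4 they were 45.0 and 45.3%. With all 5 the order turned, 63.5% (61.8 to 65.3%) of members and 57.0% (55.0 to 59.0%) of non-members. Set at equal total numbers of lists, members were lower throughout, from 2.89 against 12.2% at 1 list to 45.0 against 57.0% at 5. Within every other list, regions also in Mef2c/p300 overlapped FAIRE more often than regions not in it: 47.7 against 33.1% for N1/p300, 29.0 against 19.2% for Mef2c/MAML, and 56.3 against 32.3% for N1/MAML. Those regions also scored higher in their own list, with medians of 428 against 305 in N1/p300 and 455 against 315 in Mef2c/MAML. In the upper score quartile of N1/p300 the shares were 60.6 and 46.8%. No other list was put in the place of Mef2c/p300 in this comparison. Among non-members too, the share rose with the number of lists, from 12.2% with 1 to 57.0% with 5.

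**Figure D4:**
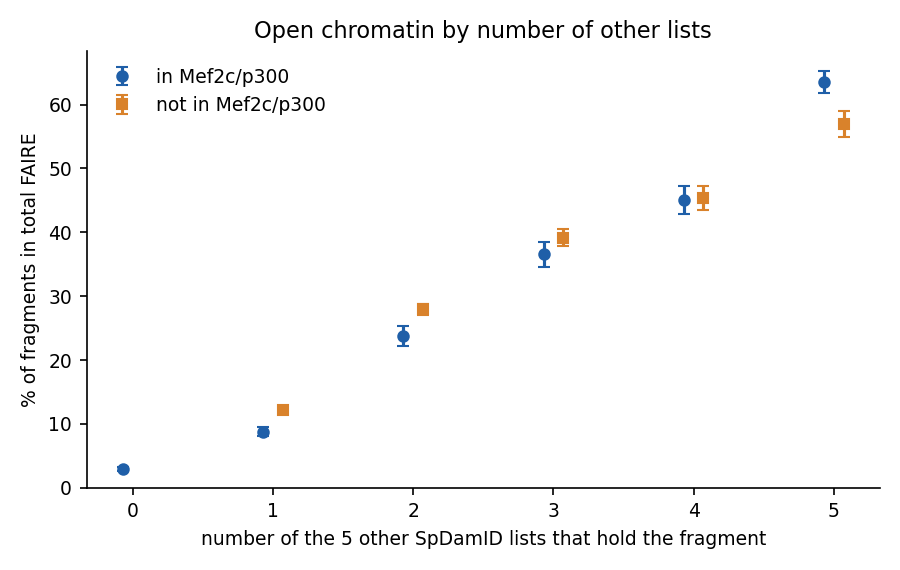
Percent of SpDamID fragments that overlap total FAIRE, by how many of the 5 other lists hold the fragment, for fragments in Mef2c/p300 (circles) and not in it (squares), with exact 95% intervals for counting error. Members start at 2.89% with 0 other lists and pass non-members at 5 lists (63.5 against 57.0%).

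A higher score brought little more open chromatin in Mef2c/p300. From the lowest to the highest score quartile the share in total FAIRE went from 15.2 to 22.6%, whereas it went from 12.8 to 36.3% in Mef2c/MAML and from 26.5 to 53.5% in N1/p300. In the lowest quartile, Mef2c/p300 was above Mef2c/MAML. Among the 2000 highest scoring regions of each list, 21.3% of Mef2c/p300, 46.1% of Mef2c/MAML, 59.7% of N1/p300, 59.8% of N1/MAML regions overlapped, and for N1/RBP and N1/N1 the values were 64.2 and 66.2%. With every list weighted to the lengths of Mef2c/p300 the shares were 18.2% for Mef2c/p300, 23.6% for Mef2c/MAML and 36.2 to 46.3% for the N1 lists.

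**Figure D5:**
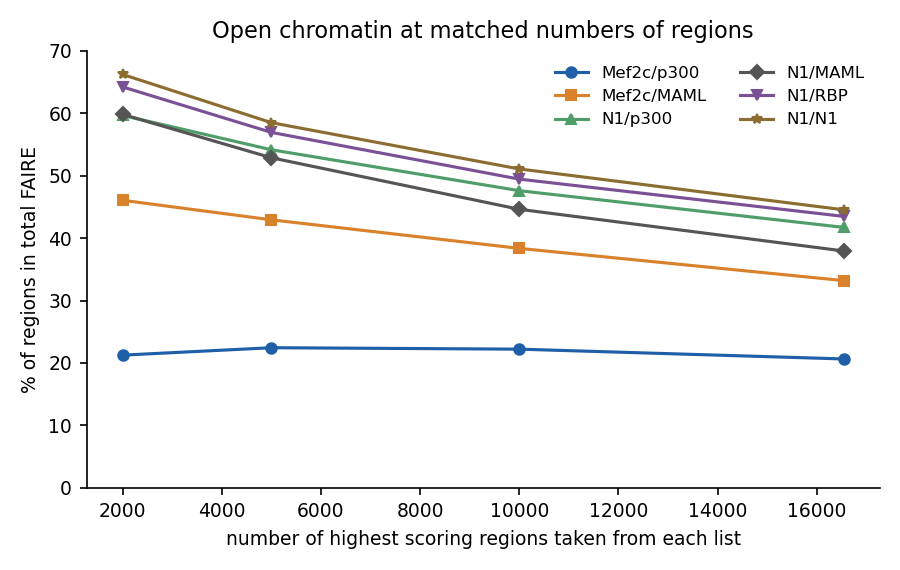
Percent of regions that overlap total FAIRE among the highest scoring regions of each SpDamID list, by the number of regions taken. The Mef2c/p300 line stays between 20.6 and 22.4%, under the other 5 lists at each of the 4 sizes, and those lists fall as more regions are taken.

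Members outside open chromatin were not close to it as a rule. The median distance from a Mef2c/p300 region to the nearest total FAIRE region was 13580.5 bp, against 8333 bp in Mef2c/MAML and 1397 to 2921 bp in the N1 lists. Another 6.85% lay within 1 kb without overlapping, 20.3% between 1 and 10 kb, 40.2% between 10 and 100 kb, and 14.4% beyond that. The median for members in no other list was 27814 bp. Among members that did not overlap, the median was 22757 bp, and in the other lists it was 14282.5 to 25690 bp.

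The members in open chromatin with the highest scores were shared with differing partners. The highest, chr5:141780273-141780760, scored 705 in Mef2c/p300, 592 in Mef2c/MAML and 466 in N1/p300. At chr7:51900718-51902770 the score was 682, with 808 in N1/p300 and no Mef2c/MAML region. At chr8:96505296-96505962, which also overlapped Notch-dependent FAIRE, it was 677, and every other list held the fragment at 511 to 654. The region chr16:45110940-45111444 scored 677, with 712 in Mef2c/MAML. Notch-dependent FAIRE also held chr15:11630611-11631245 (score 675, in the 100 kb window with most members) and chr11:53373115-53373637 (score 661, with 696 in Mef2c/MAML). Besides the chromosome 6 region above, the highest scoring members in N1 ChIP were chr8:73987663-73988329 (score 572) and chr8:73289933-73290514 (score 571). All 6 SpDamID lists and total FAIRE held both.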

How the data were processed

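For each SpDamID region the authors deposited a score in whole numbers per complex against Dam, kept from a confidence of 0.999 per the file headers. FAIRE peaks come from MACS in Galaxy, per the file headers, and carry a deposited score. The ChIP list holds a deposited ratio of ChIP to input. The sources used here give no aligner, version or scale of the scores. Coordinates are of mm9, per the submitters' processing notes. Lists were matched to complexes by the initials in their names, since no label spells these out.

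The 6 SpDamID lists, 2 FAIRE lists and the ChIP list were compared on 20 chromosomes as 1-based positions, without regions over 100 kb. Regions counted as shared from 1 bp of overlap. Chromosome spans run from the first to the last SpDamID region. Score and length quartiles, windows on a fixed grid from base 1, and gaps between regions were computed in Python 3.11.15 with numpy 2.4.6, pandas 2.3.3 and scipy 1.17.1. The overlap functions were tested on simulated data. Length weighting used bins of 100 bp. A stretch was at least 5 regions scoring 700 or more, each within 100 kb of the next.

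Regions named are the 10 with the highest score, the 3 highest in each class by Mef2c/MAML and N1/p300, the 5 highest in total FAIRE, the 3 highest in N1 ChIP and the 3 highest in Notch-dependent FAIRE, the 5 longest runs and the 5 densest windows of 100 kb. The low scoring region on chromosome 15 and the regions named under other observations were chosen after their values were seen. The members and lists were chosen with earlier results of these data known. Alternatives were a stricter overlap, region centres, scores from the median, lists merged within 500 bp, lengths of 405 to 786 bp, autosomes, and other neighbour distances. Sequences and genes by position were not analysed here, because the gene table used is of another build.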

Additional observations from a re-analysis of the deposited data

How the results depend on the processing

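Of 56 alternative values for 10 results, 30 stayed and 26 moved. Staying meant lying within the counting interval of the value reported, or within 1.5 times it for counts and folds. Some of the 30 could not move. SpDamID fragments are identical or separate, so stricter overlap and region centres cannot change the Mef2c/MAML and N1/p300 shares or their difference. The N1 ChIP share was also identical under both (0.497%). The count with the region over 100 kb (28757) was set as unchanged. The difference between the Mef2c/MAML and N1/p300 shares kept its sign throughout, and Mef2c/MAML is the larger list (50380 against 22358 regions). With scores from the median up, the share in Mef2c/MAML was 58.7%, in N1/p300 29.8%, in total FAIRE 20.4%, in N1 ChIP 0.407% and in Notch-dependent FAIRE 3.14%, the difference was 28.9 points, 45.1% had a neighbour within 10 kb and the median FAIRE distance was 12373 bp. With members of the common length range, Mef2c/MAML held 56.3%, N1/p300 25.7%, and the difference was 30.6 points. Overlap of 50% of the smaller region gave 13.5% in total and 1.9996% in Notch-dependent FAIRE, and region centres gave 13.2 and 1.90%. Merging within 500 bp gave 17.4% in total FAIRE and 0.728% in N1 ChIP. A neighbour lay within 1 kb for 31.7%, within 50 kb for 86.2%, and within 10 kb for 53.1% after abutting regions were joined. The highest fold of a chromosome was 1.85 by density and 1.21 by distinct fragments. Chosen after seeing the data, the Mef2c/MAML list reduced to the size of N1/p300 gave 31.1% and 6.68 points, members in at least 1 other list gave 28.8% in total FAIRE, and without the 4 dense windows 58.1% had a neighbour within 10 kb and the FAIRE distance was 12985.5 bp. The cause was not tested. With the region over 100 kb the list covered 19.8 Mb in place of 19.1 Mb. No paired analysis was possible because the lists pool their libraries and Mef2c/p300 has 1 library. That single library, with no value per library and unknown depth, limits every statement.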

Other observations

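Fragments found in a single SpDamID list differed between the lists. In total FAIRE were 2.89% (2.60 to 3.21%) of the 11781 fragments held by Mef2c/p300 alone, 8.70% of the 22724 held by Mef2c/MAML alone, 11.2% of the 4116 of N1/p300, 12.4% of the 4321 of N1/MAML, 15.6% of the 5044 of N1/RBP and 18.7% of the 9992 of N1/N1. Their median scores lay between 191 and 269, with 206 for Mef2c/p300, and their median lengths between 448 bp in Mef2c/MAML and 1990 bp in N1/MAML, with 674 bp for Mef2c/p300. These lists have different numbers of regions and libraries, and the part of either in the order was not tested.

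Outside the 2 high scoring stretches, 12 Mef2c/p300 regions scored 700 or more, up to 752. Mef2c/MAML held 11 of them, N1/p300 held 9, and 1 lay in total FAIRE. Of all distinct fragments, Mef2c/MAML holds 52.3%, N1/p300 holds 23.2%, and 19.3% overlap total FAIRE. Only chr5:138953459-138954102 (score 729), chr16:30736846-30737464 (724) and chr4:131570164-131570802 (717) were in no N1 list. Mef2c/MAML held them at 632, 533 and 631. An N1 partner was thus more frequent among these 12 regions than among all members, of which 39.97% were in at least 1 N1 list. The region without Mef2c/MAML was chr7:85215082-85216203, which scored 706 in Mef2c/p300 and 280 in N1/p300. The neighbours chr8:93425284-93425797 and chr8:93425809-93426429 scored 714 and 719, and 747 and 727 in Mef2c/MAML.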
